A study of Canis lupus familiaris with 124 samples.

Results

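ABCC1, GSTP1 and BCL2 were followed as 3 genes that are commonly read as markers of drug resistance, out of 32183 genes quantified in canine prostate and bladder cancer. They were chosen by name and identifier (ENSCAFG00000018208, ENSCAFG00000011349 and ENSCAFG00000000068), and all 3 passed the filter on low counts in every comparison. RNA sequencing data of 8 cell lines in 22 libraries and of 9 tumor tissues with 1 library each were used. The question was how the level of each gene varied between the cell lines, whether the lines differed from the tissues, and where the lines that the study describes as particularly resistant to doxorubicin stood in the order.

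The cell lines came from prostate adenocarcinoma (PAC) or transitional cell carcinoma (TCC) of pet dogs, were untreated, and grew in medium with fetal calf serum. Among the PAC lines, Adcarc0846 came from dog 2, a male German Rough-haired Pointer aged 6 years, and Adcarc1508 from dog 3, a neutered mixed-breed male aged 11 years. Adcarc1511.1 was grown from the primary tumor of dog 4, a neutered male Dobermann aged 6 years, and Metadcarc1511.2 and Metadcarc1511.3 from different lymph node metastases of the same dog. The TCC line TCC0840 came from dog 5, a neutered male Pitbull Terrier aged 10 years, TCC1506 from the bladder of dog 7, a female Labrador aged 10 years, and TCC1509 from the prostate of dog 6, a neutered male Bolonka Zwetna aged 9 years. The original tissues P2 (of Adcarc0846), Ln4.2 and Ln4.3 (of Metadcarc1511.2 and Metadcarc1511.3), P6.1 (of TCC1509) and B7 (of TCC1506) were available for 5 lines. The other tissues were the TCC lymph node metastasis Ln6.2 of dog 6 and the bladder TCC samples B8, B9 and B10 of a female Cairn Terrier aged 11 years, a neutered female Miniature Pinscher aged 8 years and a female German Shepherd aged 8 years. Adcarc0846 and TCC0840 had 2 libraries each and the other lines 3, taken at different passages except for 2 libraries of TCC1509 at passage 85. A line is 1 culture of 1 tumor, so the spread between its libraries is not a spread between dogs.

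ABCC1 encodes a transporter of the cell membrane (MRP1) that pumps drugs and conjugates of glutathione out of the cell. The human protein also carries anthracyclines such as doxorubicin, and whether the canine protein does was not examined here. GSTP1 encodes a glutathione S-transferase, an enzyme that couples glutathione to reactive compounds, and the resulting conjugates are among the cargo of ABCC1. In human prostate cancer GSTP1 is known for being silenced by methylation of its promoter. BCL2 encodes an inhibitor of apoptosis at the outer membrane of the mitochondrion, is also strongly expressed in many lymphocytes, and sets how readily a damaged cell dies.

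The libraries of the lines held between 15355798 and 19935282 expected counts and the tissues between 11920463 and 18086895. Levels are given as CPM, the counts of a gene relative to the library total with TMM scaling, which are comparable between samples but not between genes. In TPM, which also divide by the length of the transcripts, GSTP1 was the most abundant of the 3 genes, with a median level of 158.7 TPM over the libraries against 17.9 TPM for ABCC1 and 7.32 TPM for BCL2. GSTP1 was above ABCC1 in 31 of 31 libraries and ABCC1 above BCL2 in 26 of them. The 95% counting interval (exact binomial) of a library reached at most 27.5% from the value for BCL2 in the lines, and at most 15.6% for ABCC1 and GSTP1 in lines or tissues.

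**Figure D1:**
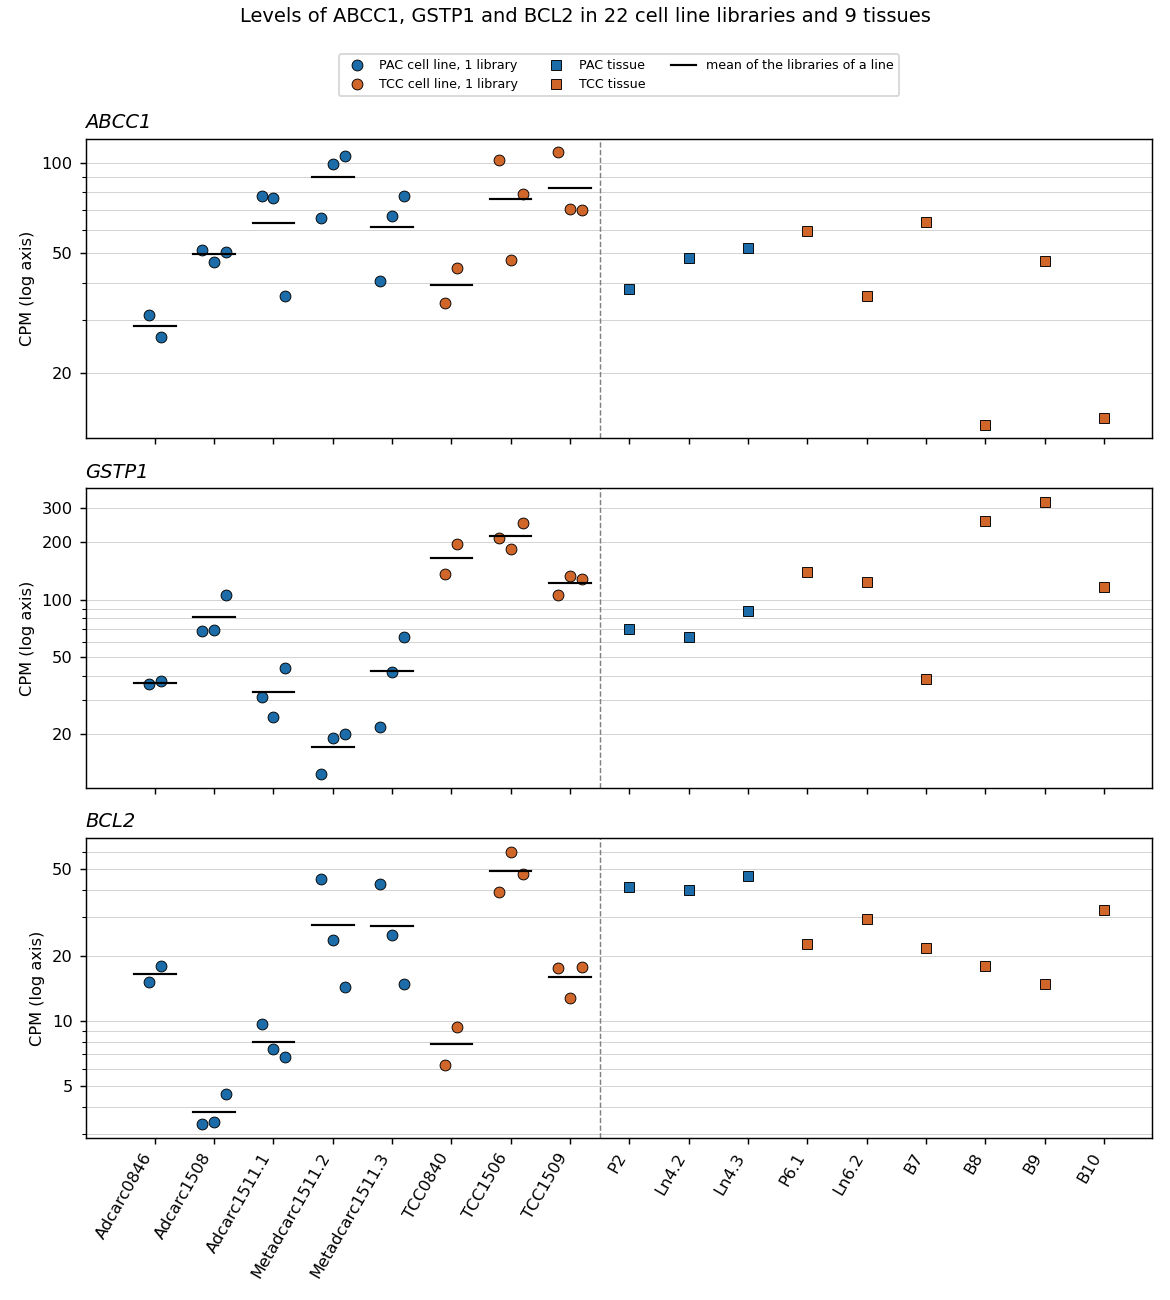
CPM of ABCC1, GSTP1 and BCL2 on log axes in each library of the 8 cell lines (circles, with the mean of a line as a bar) and in the 9 tissues (squares), with PAC in blue and TCC in orange. The TCC lines have the highest GSTP1 means (122 to 215 CPM), and the 3 libraries of each metastasis line spread about 3-fold in BCL2.

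ABCC1 varied least between the lines, from a mean of 28.7 CPM in Adcarc0846 to 90.1 CPM in Metadcarc1511.2, a ratio of 3.14. The 2 libraries of Adcarc0846 had 31.2 and 26.3 CPM, those of TCC0840 had 34.1 and 44.6 CPM, and the 3 of Adcarc1508 had 51.3, 47.0 and 50.7 CPM. The other lines were higher on average and spread more widely. Adcarc1511.1 had 77.5, 76.2 and 36.0 CPM, Metadcarc1511.2 had 65.5, 99.5 and 105.4 CPM, and Metadcarc1511.3 had 40.4, 66.4 and 77.5 CPM. TCC1506 had 102.2, 47.6 and 78.5 CPM and TCC1509 had 108.5, 70.2 and 69.9 CPM. A single line thus spanned up to 2.15-fold (Adcarc1511.1 and TCC1506), and PAC and TCC lines overlapped over most of the range.

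In descending order of the mean, ABCC1 was highest in Metadcarc1511.2, followed by TCC1509, TCC1506, Adcarc1511.1, Metadcarc1511.3, Adcarc1508, TCC0840 and Adcarc0846. None of the 7 steps between neighbours in this order passed the test (edgeR's quasi-likelihood test, adjusted p at most 0.01 and at least 2-fold), and the smallest adjusted p of a step was 0.441. Of the 28 pairs of lines, 3 differed in ABCC1, whereas over all genes 19.7% of the comparisons of a gene in a pair were called. All 3 pairs hold Adcarc0846, whose log2 fold change was -1.65 ± 0.38 (SE) over Metadcarc1511.2 (adjusted p = 0.00232, 17.4% of genes called), -1.51 ± 0.37 over TCC1509 (adjusted p = 0.0033, 23.3%) and -1.44 ± 0.37 over TCC1506 (adjusted p = 0.00455, 24.4%) in the same edgeR fit. Without either library of Adcarc0846, 0 pairs passed, and without the library of Adcarc1511.1 at passage 95, 5 did.

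GSTP1 showed the widest separation between PAC and TCC lines. The TCC lines were the 3 highest, with 209.6, 184.0 and 250.6 CPM in TCC1506, 135.9 and 194.8 CPM in TCC0840, and 105.3, 132.5 and 128.5 CPM in TCC1509. Among the PAC lines, Adcarc1508 came closest, with 68.5, 69.6 and 105.5 CPM. Metadcarc1511.3 had 21.6, 41.9 and 64.3 CPM, Adcarc0846 had 36.4 and 37.5 CPM, Adcarc1511.1 had 31.02, 24.5 and 43.9 CPM, and Metadcarc1511.2 was lowest with 12.3, 19.1 and 20.1 CPM. The means ran from 17.2 to 81.2 CPM in PAC lines and from 122 to 215 CPM in TCC lines. At the level of libraries 1 of 14 PAC libraries lay above the lowest of 8 TCC libraries. The share of all genes that separate the lines in this way was not counted.

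Of the 15 pairs of a PAC and a TCC line, 13 differed in GSTP1, beside 22.3% called over all genes in the same pairs, and GSTP1 was higher in the TCC line in each of the 13. The exceptions were Adcarc1508 against TCC0840 and against TCC1509. The largest difference was that of Metadcarc1511.2 over TCC1506, with a log2 fold change of -3.67 ± 0.34 (SE; edgeR, adjusted p = 7.27e-08), or 12.7-fold lower, where 26.1% of genes were called. Pairs share lines, and the PAC lines of dog 4 also share a dog, so the pairs are not independent. Within PAC 2 of 10 pairs passed (background 13.6%), those of Adcarc1508 above Adcarc1511.1 (18.8% of genes called) and above Metadcarc1511.2 (16.7%), and within TCC 0 of 3 did by edgeR (background 27.5%), with TCC1506 over TCC1509 at an unadjusted p of 0.0123.

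With the line as the unit, the log2 fold change of GSTP1 in PAC over TCC lines was -2.003 ± 0.52 (SE; 5 against 3 lines), or 4.01-fold lower, but this did not pass after adjustment over 14503 genes (edgeR, p = 0.00159, adjusted p = 0.129). In that comparison 1 gene was called (0.0069%), and 1378 had an unadjusted p under 0.05. Adcarc1511.1, Metadcarc1511.2 and Metadcarc1511.3 are all of dog 4, so the 5 PAC lines represent 3 dogs. With 1 sample per dog and material the difference was -1.77 (edgeR, adjusted p = 0.729). Taking each library as a sample, which treats the libraries of a line as independent, gave -1.97 (edgeR, adjusted p = 9.02e-05). Over all alternatives the adjusted p ran from 9.02e-05 to 0.729. ABCC1 (-0.17 ± 0.49, adjusted p = 0.984) and BCL2 (-0.56 ± 0.59, adjusted p = 0.884) did not pass between PAC and TCC lines in the same edgeR fit.

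The sample numbers in the labels form 2 series, which may be sequencing runs, and each held PAC and TCC lines. Within the series of the tissues, Adcarc0846 had 36.4 and 37.5 CPM of GSTP1, below TCC0840 and both TCC1506 libraries of that series (135.9 to 209.6 CPM). Within the other, the PAC libraries ran from 12.3 to 105.5 CPM and the TCC libraries from 105.3 to 250.6 CPM. The series of the tissues held 1 PAC line only. In the other, the highest PAC library, of Adcarc1508, was above the lowest TCC library, of TCC1509.

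BCL2 had the widest range of means among the lines, 13.02-fold, and did not follow the tumor class. TCC1506 was highest with 39.2, 60.2 and 47.7 CPM, while TCC0840 had 6.23 and 9.30 CPM and TCC1509 had 17.5, 12.8 and 17.7 CPM. Adcarc1508 was lowest with 3.32, 3.40 and 4.57 CPM. Adcarc0846 had 15.1 and 17.8 CPM and Adcarc1511.1 had 9.64, 7.43 and 6.83 CPM. The metastasis lines ranked 2 and 3, with 45.1, 23.5 and 14.3 CPM in Metadcarc1511.2 and 42.9, 24.8 and 14.8 CPM in Metadcarc1511.3. Their lowest libraries were within the range of TCC1509, and their highest within that of TCC1506.

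BCL2 differed in 13 of the 28 pairs of lines (background 19.7%), in 5 of 10 within PAC, 6 of 15 between PAC and TCC and 2 of 3 within TCC. The largest difference was that of Adcarc1508 over TCC1506, with a log2 fold change of -3.71 ± 0.41 (SE; edgeR, adjusted p = 8.11e-07), or 13.1-fold lower, where 21.8% of genes were called. As for ABCC1 and GSTP1, no step between neighbours in the order passed the test, so the order of adjacent lines is not fixed by these libraries. For GSTP1 the smallest adjusted p of a step was 0.0262 (Adcarc1508 over Metadcarc1511.3), and for BCL2 it was 0.0505 (TCC1509 over Adcarc1511.1), both from edgeR.

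**Figure D2:**
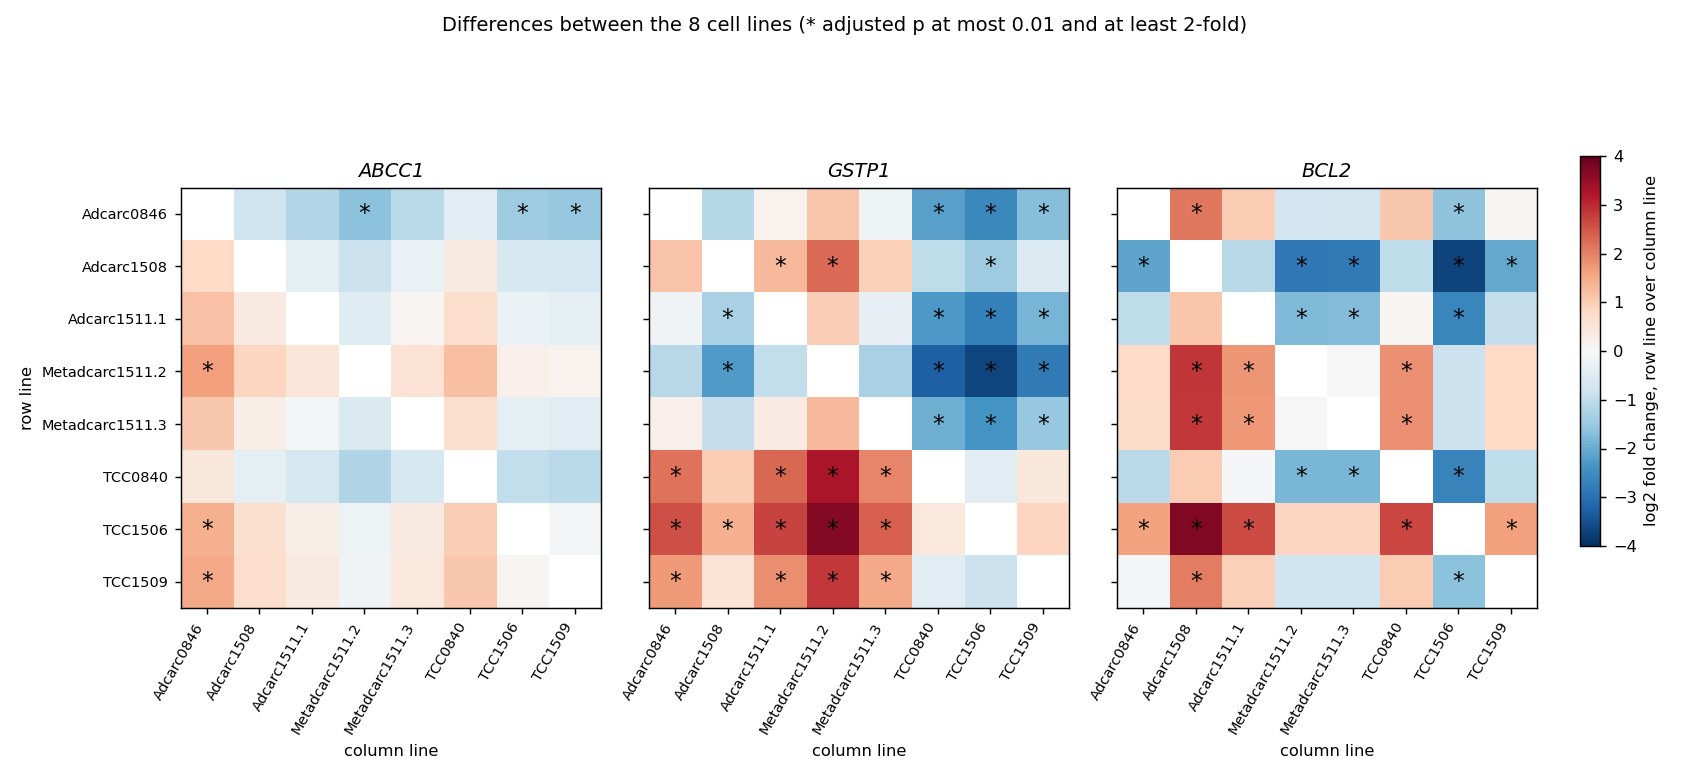
Log2 fold change of the row line over the column line for ABCC1, GSTP1 and BCL2 in the 28 pairs of cell lines, with red for higher and blue for lower, and a star for an adjusted p of at most 0.01 and at least 2-fold. Stars mark 3 pairs for ABCC1, 15 for GSTP1, of which 13 join a PAC and a TCC line, and 13 for BCL2.

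The study names both metastasis-derived lines as particularly resistant to doxorubicin. It also examined the drug transporter genes ABCB1, ABCC1 and ABCG2 in lines against tissues. ABCB1 was reported as raised in PAC metastasis and TCC and ABCG2 as lowered in PAC and PAC metastasis, while no change was named for ABCC1. In the order of the 8 lines from the highest mean, Metadcarc1511.2 ranked 1 in ABCC1, 8 in GSTP1 and 2 in BCL2, and Metadcarc1511.3 ranked 5, 5 and 3. In BCL2 only TCC1506 was above both lines, and neither differed from it by the test (edgeR, adjusted p = 0.0697 for Metadcarc1511.2 and 0.0641 for Metadcarc1511.3). In ABCC1 and GSTP1 the 2 lines did not rank together. Metadcarc1511.2 held the lowest GSTP1 mean and the highest ABCC1 mean, the latter not separated from TCC1509 (edgeR, adjusted p = 0.772). Setting these ranks against resistance is a description without a test, since both lines stem from 1 dog and inhibitory concentrations of the drugs were not used here. ABCC1 is also in the study's list of genes ranked for the response to carboplatin, which was drawn up with these cell lines, so its place in that list is not independent evidence.

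Within dog 4, the metastasis lines could be set against Adcarc1511.1, the line of the primary tumor. BCL2 was higher in the metastasis lines by 1.76 ± 0.35 (log2, SE; 6 against 3 libraries), 3.38-fold, and passed the test (edgeR, adjusted p = 0.00109), as did 10.4% of the 13916 genes tested. The 6 metastasis libraries (14.3 to 45.1 CPM) lay above the 3 of the primary tumor line (6.83 to 9.64 CPM), an order not counted over all genes. Each metastasis line alone also differed from Adcarc1511.1, with log2 fold changes of Adcarc1511.1 of -1.77 ± 0.38 over Metadcarc1511.2 (adjusted p = 0.00348, background 6.83%) and -1.75 ± 0.38 over Metadcarc1511.3 (adjusted p = 0.00253, background 11%) in edgeR. Between the metastasis lines the BCL2 means were 27.6 and 27.5 CPM.

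ABCC1 and GSTP1 did not pass in the same contrast. ABCC1 differed by 0.20 ± 0.28 (log2, SE; adjusted p = 0.643) and GSTP1 by -0.32 ± 0.27 (adjusted p = 0.399) in edgeR. GSTP1 was 2.46-fold lower in Metadcarc1511.2 than in Metadcarc1511.3 (log2 -1.296 ± 0.32, SE; edgeR, adjusted p = 0.0237, 1.88% of genes called), short of the threshold of 0.01. This contrast rests on 3 cultures of 1 dog, and the spread it is tested against is that between libraries of a culture.

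The libraries of the metastasis lines differ in passage, the number of times a culture was transferred. In both metastasis lines the library of the earliest passage had the highest BCL2 and the lowest GSTP1 and ABCC1. BCL2 in Metadcarc1511.2 was 45.1, 23.5 and 14.3 CPM at passages 68, 75 and 79, and in Metadcarc1511.3 it was 42.9, 24.8 and 14.8 CPM at passages 79, 86 and 87. The BCL2 values of these lines were alike by replicate number and not by passage, since at passage 79 the lines had 14.3 and 42.9 CPM. GSTP1 over the same libraries was 12.3, 19.1 and 20.1 CPM in Metadcarc1511.2 and 21.6, 41.9 and 64.3 CPM in Metadcarc1511.3.

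The other lines with 3 libraries differed from this. BCL2 in the library of the earliest passage was above both later ones in Adcarc1511.1, between them in TCC1509 and below both in Adcarc1508 and TCC1506. GSTP1 was below both later values in Adcarc1508 and TCC1509 and between them in Adcarc1511.1 and TCC1506. ABCC1 was above both in each of these lines, opposite to the metastasis lines. In a fit over the 6 lines with the line as a covariate, added after these values were seen, the earliest libraries differed from the later ones by 0.46 ± 0.21 in BCL2 (log2, SE; adjusted p = 0.133), by -0.43 ± 0.17 in GSTP1 (adjusted p = 0.0801) and by 0.12 ± 0.20 in ABCC1 (adjusted p = 0.695), and 2.83% of genes were called (edgeR). Without the 3 lines of dog 4 the BCL2 value was -0.15. Within a line the replicate numbers follow the passages, so that the parts of both in these differences were not tested. Leaving out the earliest libraries, BCL2 in the metastasis lines was still above Adcarc1511.1, by 1.45 on the log2 scale (edgeR, adjusted p = 0.00347, range over all alternatives 2.99e-06 to 0.00943).

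**Figure D3:**
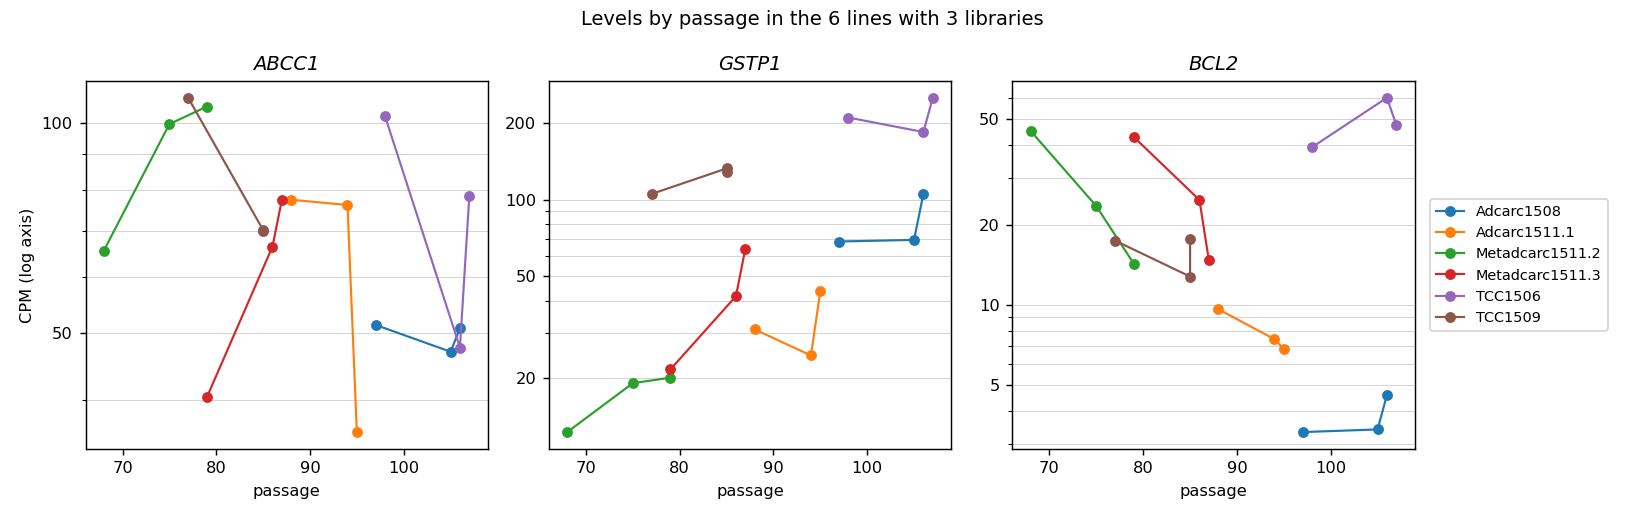
CPM on log axes against passage for ABCC1, GSTP1 and BCL2 in the 6 lines with 3 libraries, each line joined in a colour. In both metastasis lines BCL2 is lower at each later passage, from 45.1 to 14.3 and from 42.9 to 14.8 CPM, and GSTP1 is higher, while BCL2 in the lines of other dogs stays within 1.54-fold.

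In the tissues, ABCC1 ran from 13.5 CPM in B8 over a median of 47.3 CPM to 63.8 CPM in B7. Both low values were bladder tumors, B8 and B10 (14.2 CPM), and the remaining 7 tissues lay between 36.1 and 63.8 CPM. GSTP1 ran from 38.7 CPM in B7 over a median of 116.2 CPM to 322.8 CPM in B9. The PAC tissues had 70.4 (P2), 64.0 (Ln4.2) and 86.9 CPM (Ln4.3), below every TCC tissue except B7. The difference between PAC and TCC tissues had the same direction as in the lines, -1.14 ± 0.55 (log2, SE; 3 against 6 tissues), and did not pass (edgeR, adjusted p = 0.308).

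BCL2 was highest in the PAC tissues, with 41.3 (P2), 40.1 (Ln4.2) and 46.7 CPM (Ln4.3). The TCC tissues ran from 14.7 CPM (B9) over a median of 22.1 CPM to 32.5 CPM (B10), below each PAC tissue. The share of all genes with such an order was not counted. In the test across all genes the difference was 0.91 ± 0.56 (log2, SE; edgeR, adjusted p = 0.441), and 0.0069% of genes were called there, with 2400 genes at an unadjusted p under 0.05. ABCC1 differed by 0.27 ± 0.47 (edgeR, adjusted p = 0.816). Since Ln4.2 and Ln4.3 are of 1 dog, the PAC tissues represent 2 dogs. Both are lymph node metastases, in which the study describes lymphoid and connective tissue beside the tumor cells. P2 is a prostate tumor, and Ln6.2, the lymph node metastasis of TCC, had 29.6 CPM of BCL2. Tumor class and tissue site are thus not separated in this comparison.

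The tissues hold other cells beside the tumor, and BCL2 moved there with markers of several cell types. The lymphocyte marker RAC2 (1 of 16 listed), a small GTPase of blood cells that myeloid cells also express, was at 36.6 to 87.5 CPM in the PAC tissues and 1.65 to 31.1 CPM in the TCC tissues. Over the 9 tissues, the log2 level of BCL2 correlated with that of RAC2 with Pearson's r = 0.90 and Spearman's rho = 0.90, and with r = 0.92 after the 2 tissues farthest from the median were left out. For the myeloid markers CSF1R, ALOX5AP and TYROBP (3 of 9) r was 0.75 and rho 0.78. For the fibroblast markers (6 of 10) r was 0.66 and rho 0.62, for the endothelial markers KDR, VWF and TEK (3 of 6) r was 0.53 and rho 0.58, and for 2 epithelial markers (EPCAM and CLDN7) r was -0.51 and rho -0.67. These are descriptions over 9 tissues that share dogs and 1 sample-number series, and the part of other cells in the BCL2 level was not tested. In such bulk samples, fewer cells of a type and less RNA per cell cannot be told apart.

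For ABCC1 and GSTP1 the correlation (Pearson's r) with RAC2 was -0.0028 and -0.30. Without the 2 tissues farthest from the median of the markers, r for GSTP1 was -0.87 with RAC2, -0.77 with the myeloid markers (-0.11 over all 9 tissues) and 0.80 with the epithelial markers (0.42 over all). For ABCC1 it was 0.09 with RAC2, 0.43 with the myeloid markers (0.03 over all) and -0.74 with the epithelial markers (-0.30 over all). The correlations of both genes with these markers thus rest on which tissues are included. In the cell lines RAC2 was at most 1.08 CPM and the myeloid markers summed to at most 0.04 CPM, with TYROBP at 0 in 8 of 8 lines. The epithelial markers were detected in every line, from 26.6 CPM in TCC1509 to 1243 CPM in Adcarc1511.1. The fibroblast markers were COL1A1, COL1A2, COL3A1, COL6A2, DCN and SPARC (6 of 10). They summed to 1027 CPM in TCC1509 and 93.9 CPM in TCC1506, and to at most 1.31 CPM in the other lines. The sum in TCC1509 was above those of the tissues B7 (468.0 CPM) and B10 (786.9 CPM), so these markers are not particular to the fibroblasts of a tissue. Among the tissues the epithelial markers were lowest in Ln6.2 (13.4 CPM) and P2 (22.6 CPM), where the fibroblast markers reached 53787 and 101059 CPM.

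**Figure D4:**
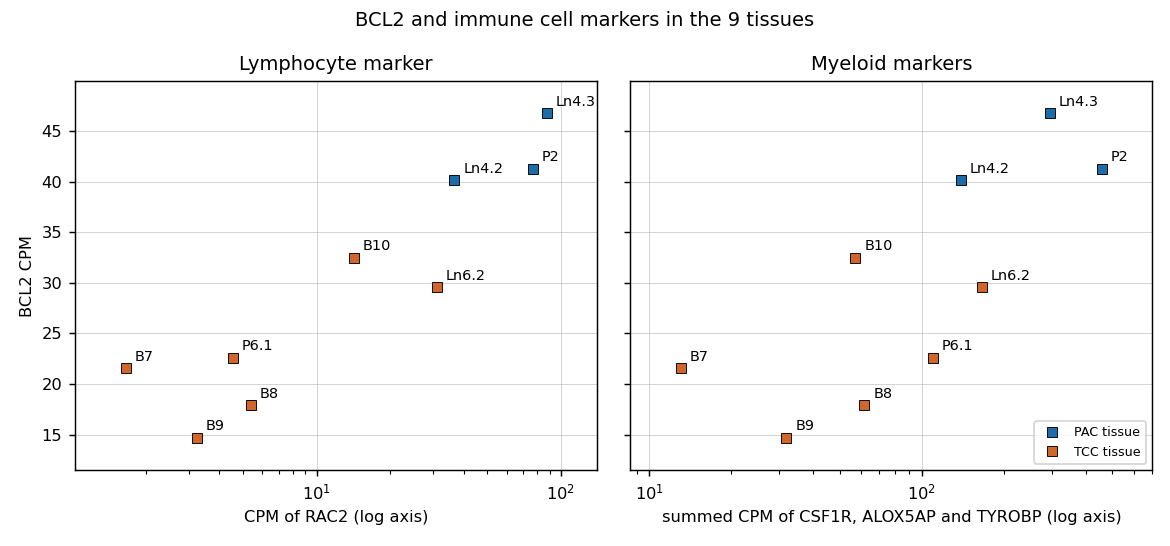
CPM of BCL2 in the 9 tissues against the CPM of the lymphocyte marker RAC2 (left) and the summed CPM of 3 myeloid markers (right), both on log axes, with PAC in blue and TCC in orange. The PAC tissues have 40.1 to 46.7 CPM of BCL2, above the TCC tissues (14.7 to 32.5 CPM), and RAC2 was also higher in them, while the myeloid sums overlapped (139.2 to 458.3 CPM in PAC, 13.1 to 165.8 CPM in TCC).

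The comparison of each line with its own tissue asks what the culture retained. ABCC1 had line means from 0.757 times the tissue (Adcarc0846 over P2) to 1.87 times (Metadcarc1511.2 over Ln4.2). GSTP1 was lower in every library of 4 lines, with Metadcarc1511.2 at 17.2 ± 4.2 CPM (SD, n = 3) against 64.0 CPM in Ln4.2, Metadcarc1511.3 at 42.6 ± 21.4 CPM (SD, n = 3) against 86.9 CPM in Ln4.3, and Adcarc0846 at 37.0 ± 0.76 CPM (SD, n = 2) against 70.4 CPM in P2. TCC1509, at 122.1 ± 14.7 CPM (SD, n = 3), was close to P6.1 with 139.7 CPM. TCC1506 went the other way, with 214.7 ± 33.6 CPM (SD, n = 3) against 38.7 CPM in B7, or 5.54-fold above it. B7 had the lowest GSTP1 of all tissues, and TCC1506 the highest of all lines.

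BCL2 had the same split in the means of the lines, with 1 library of Metadcarc1511.2 (45.1 CPM) above Ln4.2 (40.1 CPM). It was 2.51-fold lower in Adcarc0846 than in P2, 1.45-fold lower in Metadcarc1511.2 than in Ln4.2, 1.70-fold lower in Metadcarc1511.3 than in Ln4.3 and 1.41-fold lower in TCC1509 than in P6.1, and 2.27-fold higher in TCC1506 than in B7. Among the tissues B7 also had the lowest RAC2 (1.65 CPM) and the lowest sums of myeloid (13.1 CPM), endothelial (44.2 CPM) and fibroblast (468.0 CPM) markers. Against the metastasis Ln6.2 of the same dog, TCC1509 was similar in GSTP1 (0.982 times), 2.29-fold higher in ABCC1 and 1.85-fold lower in BCL2. With 1 library per tissue, these single pairs have no test.

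**Figure D5:**
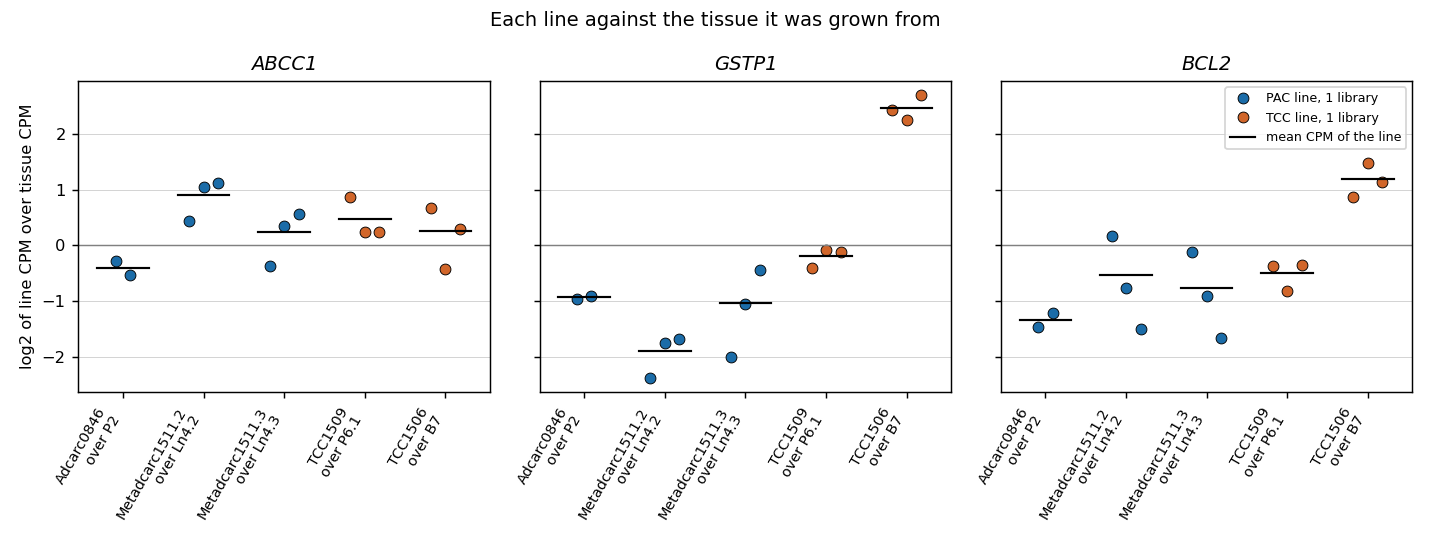
Log2 of the CPM of each line over that of the tissue it was grown from, by library (points) and for the mean of the line (bars), for ABCC1, GSTP1 and BCL2. TCC1506 over B7 is at 2.47 for GSTP1 and 1.18 for BCL2, while the other lines are below 0 in the mean of both genes.

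Over both PAC metastasis pairs, the log2 fold change of GSTP1 in lines over tissues was -1.49 ± 0.28 (SE; 2 pairs of 1 dog), or 2.81-fold lower, and did not pass the threshold of 0.01 in edgeR (adjusted p = 0.0264). The values were -0.71 ± 0.17 for BCL2 (adjusted p = 0.0442) and 0.54 ± 0.23 for ABCC1 (adjusted p = 0.142) in the same fit, beside 11.2% of genes called. With DESeq2, the tool of the study, the GSTP1 value of -1.52 passed (adjusted p = 1.54e-05). Over the alternatives with all samples kept, the adjusted p ran from 1.54e-05 to 0.3. The study lists GSTP1 as downregulated in its PAC and PAC metastasis lines. Its PAC comparison included samples that were not used here. In the TCC pairs GSTP1 and BCL2 went in opposite directions and ABCC1 in the same one. The values were 1.118 ± 0.93 for GSTP1 (adjusted p = 0.912), 0.32 ± 0.70 for BCL2 (adjusted p = 0.947) and 0.35 ± 0.41 for ABCC1 (adjusted p = 0.927) in edgeR. There 0% of 13599 genes were called by edgeR, 845 had an unadjusted p under 0.05, and DESeq2 called 486. Without TCC1506, and with the spread estimated over PAC metastasis and TCC pairs together, GSTP1 in the remaining pair of TCC1509 was at -0.29 and BCL2 at -0.58.

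With all 17 lines and tissues, the log2 fold change of BCL2 in PAC lines over PAC tissues was -1.41 ± 0.58 (SE; 5 lines against 3 tissues), or 2.65-fold lower, which did not pass (edgeR, adjusted p = 0.0917), beside 13.8% of genes called. GSTP1 differed by -0.85 ± 0.53 (adjusted p = 0.26) and ABCC1 by 0.33 ± 0.50 (adjusted p = 0.674). In TCC, with 3 lines against 6 tissues and 3.45% of genes called, the values were 0.01 ± 0.52 for GSTP1 (adjusted p = 0.99), 0.06 ± 0.58 for BCL2 (adjusted p = 0.965) and 0.77 ± 0.46 for ABCC1 (adjusted p = 0.303) in edgeR. The difference between these effects, PAC minus TCC, was -1.46 ± 0.81 for BCL2 (adjusted p = 0.527), -0.86 ± 0.74 for GSTP1 (adjusted p = 0.705) and -0.44 ± 0.68 for ABCC1 (adjusted p = 0.857) in edgeR, where 0.0069% of genes were called. Lines and tissues share dogs, and with dog as a block GSTP1 was at 1.06 in TCC (adjusted p = 0.385) and -1.22 in PAC (adjusted p = 0.0804), with a difference of -2.28 (adjusted p = 0.312) in edgeR. All tissues are in 1 sample-number series with 3 of the lines. Within that series ABCC1 in PAC turned to -0.56, and BCL2 stayed at -1.27 (edgeR, adjusted p = 0.386, range over all alternatives 0.0529 to 0.386), each with Adcarc0846 as the only PAC line.

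Of the genes listed with similar roles, symbols could be matched for 2 of 16 transporters of the ABC family. For the glutathione and antioxidant system it was 6 of 36 genes, and for the BCL2 family and its partners 1 of 23. Only genes in the study's tables could be matched, which include its lists ranked for drug response. The matched genes are therefore not a neutral sample. In PAC lines against PAC tissues, 1 of these 9 genes was called, against 13.8% of all genes, with a median log2 fold change of 0.23 beside 0.00 over all genes. This was MGST1, a membrane-bound glutathione transferase, which was at 0 CPM in 8 of 8 lines and had a median of 10.8 CPM in the tissues (edgeR, adjusted p = 0.000714). In TCC lines against TCC tissues 0 of 9 were called by edgeR, against 3.45% of all genes, and 3 had an unadjusted p under 0.05, as had 4019 of all 14503 genes. MGST1 had an adjusted p of 0.0117 there, and the 9 genes had a median of 0.08 beside -0.04 over all genes. In the metastasis lines against Adcarc1511.1, 0 of 8 genes were called by edgeR, against 10.4% of all genes, and 4 had an unadjusted p under 0.05, as had 5347 of all 13916 genes, with a median of -0.16 beside -0.02. The strongest of them was PRDX4, a peroxiredoxin of the secretory pathway, at -0.79 ± 0.16 (log2, SE; edgeR, adjusted p = 0.00117), under 2-fold.

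The matched transporters were ABCB8, a carrier of the inner mitochondrial membrane, and ABCA13, a large transporter of the ABCA group. ABCB8 ran from 22.7 CPM (TCC0840) to 139.0 CPM (TCC1506) over the lines and from 25.8 to 55.5 CPM over the tissues. In PAC lines against tissues its difference was 1.09 ± 0.42 (log2, SE; edgeR, adjusted p = 0.0691). ABCA13 ran from 0.04 CPM (TCC1509) to 84.5 CPM (TCC1506), with a difference of 0.27 ± 1.72 (edgeR, adjusted p = 0.928). CYCS, which encodes cytochrome c, the protein whose release from mitochondria BCL2 restrains, ran from 115.2 CPM in Adcarc1508 to 519.0 CPM in Adcarc0846, with a difference of 0.44 ± 0.61 (edgeR, adjusted p = 0.642). NFE2L2, the transcription factor NRF2 of the antioxidant response, ran from 117.3 CPM in Metadcarc1511.2 to 326.3 CPM in TCC1506 over the lines. These were also the lowest and highest lines in GSTP1, and ABCB8 and ABCA13 were highest in TCC1506 too. The order of the remaining lines in NFE2L2 was not compared with that in GSTP1. A relation of NFE2L2 to GSTP1 was not tested.

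The 3 genes had little in common in their order across samples. Over the 8 lines, the log2 levels correlated with r = 0.43 and rho = 0.55 for ABCC1 and BCL2, r = -0.04 and rho = -0.14 for ABCC1 and GSTP1, and r = 0.00 and rho = 0.07 for GSTP1 and BCL2. Over the 9 tissues the value for GSTP1 and BCL2 was r = -0.68 and rho = -0.68, with Ln4.2 and Ln4.3 from 1 dog, and for the pairs with ABCC1 it was -0.43 (GSTP1) and 0.09 (BCL2).

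Symbols were known only for genes in the study's tables, which include its lists of genes ranked for drug response in its cell lines. Among 1003 such genes, the pattern of ABCC1 over the 17 lines and tissues was most like that of PAFAH1B2 (Pearson's r = 0.91 on log2 CPM). ABI1 (0.84) and TRIM23 (0.83) came next. For GSTP1 they were GDPD1 (0.86), KDM2A (0.84) and NADSYN1 (0.80). Their values were 0.94, 0.90 and 0.87 in the lines and 0.74, 0.70 and 0.72 in the tissues. Both are parts of the 17 samples by which the genes were picked. For BCL2 they were PDZD2, BCL11A and KDM6A with 0.68, 0.68 and 0.67, and the value of PDZD2 was 0.85 in the lines and 0.00 in the tissues. In the RefSeq table of the assembly UU_Cfam_GSD_1.0, KDM2A and NADSYN1 lie on the chromosome of GSTP1, with 20 and 39 protein-coding genes between them and it. Of the 1084 genes with a symbol that could be placed there, 4.24% are on that chromosome. The other genes most like a member that could be placed are on other chromosomes than it.

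The counts themselves differ in certainty between the genes. GSTP1 has 1 annotated transcript, but its expected counts were not whole numbers in any of the 31 libraries, as happens where RSEM shares reads with another locus. The counts of ABCC1 were not whole in 3 libraries and those of BCL2 in 1. BCL2 has 2 annotated transcripts, and the mean transcript length that RSEM weighed in was 4506 bases in 8 of 9 tissues but in only 7 of 22 line libraries. In Adcarc1508 it was 4506, 1999.9 and 3579.1 bases in the 3 libraries, with 1.297, 3.60 and 2.35 TPM of BCL2 at 3.32, 3.40 and 4.57 CPM. The TPM of BCL2 therefore moved with the length assigned in this line, and the comparisons between samples above are on CPM or counts. Strand was not stated, so that reads of overlapping genes on the opposite strand cannot be told apart.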

How the data were processed

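RNA was sequenced as single reads (NEBNext Ultra kit) from 22 libraries of 8 canine cell lines and 9 tissues. Per the study's methods and the submitters' processing notes, the authors trimmed reads with Trimmomatic 0.36, aligned them to CanFam 3.1 with STAR 2.5.3 and quantified genes of Ensembl annotation 94 with RSEM 1.3.0. The authors deposited expected counts per gene for each of 124 lanes, without normalization, and 17.42% of the values above 0 are not whole. The authors also deposited TPM values, which were used here to compare genes per length only. Cell RNA and tissue RNA were isolated with different kits.

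Expected counts were summed over 4 lanes (2928121 to 5039762 counts each), and over the libraries of a line for comparisons with tissues, and rounded. Lanes were assigned by title, including 3 lanes whose labels count upward. Levels are CPM with TMM factors. Differences were tested with edgeR 4.0.16 (quasi-likelihood F test, Benjamini-Hochberg adjustment over all genes tested) in R 4.3.3, on genes with at least 10 counts in all samples of a group. Called genes had an adjusted p no higher than 0.01 and changed 2-fold or more, and SE were computed from the F statistic. Line-tissue pairs had the pair as a covariate, 17 lines and tissues entered 1 fit of 4 groups, and the 22 line libraries entered 1 fit for all pairs of lines. Libraries of a line differed by far more than sampling noise and were all kept. Fits were tested on simulated data.

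Of 71 same-numbered pairs of libraries of different lines, 42 correlated above 0.1 in their deviations. The numbers were not used as pairs in the main fits, but as a block in an alternative. Alternatives were DESeq2 1.42.0, other size factors, no count filter, other poolings, blocks and left-out samples. Binomial intervals (95%) cover counting error only, and p-values between lines measure the spread between libraries of a culture.

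Symbols came from the study's tables, which name 1120 of 32183 identifiers and include its genes ranked for drug response in its cell lines. Genes with a symbol are therefore not a neutral sample of all genes. Genes named in the text are the 3 members, matched genes of fixed pathway lists that were called or in lists of at most 3 (NFE2L2 and PRDX4 were added after their values were seen), matched cell type markers, and the 3 genes most correlated with each member on log2(CPM + 1) among those with at least 10 counts in 9 samples. None of the 17 listed drug target and repair genes and 4 smooth muscle markers could be matched. No sequences were used, and the RefSeq table gave only chromosomes and the number of genes between genes. A further lymphocyte marker is not reported here. The members and lists were chosen with earlier results of these data known. Tables were made in Python 3.11.15 (pandas 2.3.3, numpy 2.4.6, scipy 1.17.1) and plots with matplotlib 3.10.9.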

Additional observations from a re-analysis of the deposited data

Results flagged for a closer look

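Among 5 lines with their own tissue, some moved opposite to the others in every library, and these differences between lines were not tested, since each tissue has 1 library. GSTP1 was above B7 in 3 of 3 libraries of TCC1506 (mean log2 ratio 2.47) and below the tissue in every library of the 4 other lines. BCL2 was above B7 in 3 of 3 libraries of TCC1506 (1.18) and below the tissue in every library of 3 other lines. ABCC1 was below P2 in 2 of 2 libraries of Adcarc0846 (-0.40) and above the tissue in every library of 2 other lines. In 15 groups of 5 to 9 lines or tissues, no value lay apart from the rest by Dixon's test, which flags about 1 group in 20 by chance.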

How the results depend on the processing

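BCL2 in the metastasis lines over Adcarc1511.1 passed the test under all 27 alternatives (log2 1.45 to 1.93). GSTP1 in the PAC metastasis pairs passed with DESeq2 (-1.52), and GSTP1 in PAC against TCC lines passed with separate libraries (-1.97). The replicate numbers as a block gave 1.71 for BCL2 in dog 4 and 3, 19 and 13 called pairs of lines for ABCC1, GSTP1 and BCL2, and changed no call of a member in dog 4. Of 71 same-numbered pairs of libraries of different lines, 42 correlated above 0.1 in their deviation from the line mean (-0.25 to 0.84). Pairs with different numbers were not computed, so whether same-numbered libraries share a deviation was not tested.

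Small differences turned sign. In TCC lines against tissues, GSTP1 was -0.0722 (log2) with DESeq2 and with RLE size factors, -0.026 with 1 sample per dog and material and -0.0258 with separate libraries, and BCL2 was -0.0271 with DESeq2 and -0.0272 with RLE factors. ABCC1 in PAC lines against tissues was -0.56 within the sample-number series of the tissues. Earliest against later libraries gave -0.15 for BCL2 without dog 4 and -0.00029 for ABCC1 without TCC1506. ABCC1 differed in 5 pairs of lines with DESeq2 and in 6 without a count filter. Without TMM factors, with counts rounded down and in TPM, Metadcarc1511.3 ranked 4 in ABCC1 and 2 in BCL2, and Metadcarc1511.2 ranked 3 in BCL2. The cause of these shifts was not tested.

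When samples were left out singly, the TCC pairs ran from -0.29 to 2.505 for GSTP1 and from -0.58 to 1.204 for BCL2, both below 0 without TCC1506 or B7. These fits of the pairs used a spread shared by both classes and rest on 1 complete TCC pair. TCC lines against tissues ran from -0.21 to 0.31 for GSTP1 and from -0.96 to 0.48 for BCL2. PAC against TCC lines ran from -0.43 to 0.034 for ABCC1 and from -0.97 to 0.46 for BCL2, above 0 without TCC1506. ABCC1 in dog 4 ran from -0.0495 to 0.39. Called pairs of lines ran from 0 to 5 for ABCC1. Ranks ran from 1 to 2 in ABCC1 and 2 to 3 in BCL2 for Metadcarc1511.2, and from 4 to 5 in ABCC1, 5 to 7 in GSTP1 and 2 to 3 in BCL2 for Metadcarc1511.3.

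Counts of called genes depended on the tool. DESeq2 called 4841 genes in the PAC metastasis pairs (edgeR 1701, and 0 with a spread shared by both classes), 486 in the TCC pairs (edgeR 0), 1714 in TCC lines against tissues (501), 197 in the interaction (1), 288 between PAC and TCC lines (1) and 164 between PAC and TCC tissues (1). With separate libraries these were 3255 for PAC lines against tissues (2008), 2342 for TCC, 225, 767 and 58. With 1 sample per dog and material they were 888, 155, 0, 0 and 0. With dog as a block 0 genes were called in TCC and in the interaction, and within the sample-number series of the tissues 0 in PAC, TCC and the interaction. Without dog 4, 5 genes were called between earliest and later libraries (383).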
